A study of Drosophila melanogaster with 18 samples.

Results

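The intervals described here were the peaks that the authors' deposited lists gave for the Hippo pathway coactivator Yorkie (Yki) alone. They were the intervals of the Yki list that overlapped, by at least 1 base, no interval of the Scalloped (Sd) list and none of the Jun-related antigen (Jra) list. There were 439 Yki-only intervals among 3878 Yki intervals (11.3%) and among 13503 intervals in the 3 lists. They covered 332815 bases of the dm6 genome and held 1699 of 767321 counted ends of GATC sites (0.221%).

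Yki is the growth-promoting coactivator that the Hippo kinases restrain. It has no DNA-binding domain of its own and reaches chromatin through partners such as Sd, the TEAD-family protein that brings it to Hippo target genes in discs, and Homothorax. Jra, the Jun subunit of AP-1, acts downstream of the JNK kinases. Intervals of Yki without Sd or Jra therefore address where Yki was recorded and the other fusions were not listed.

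In Targeted DamID, a bacterial adenine methyltransferase (Dam), fused to a protein or alone, adds methyl groups to GATC sites close to where it sits, so that methylated fragments can be amplified and sequenced. Dam alone marks open chromatin and serves as the control. All 18 libraries came from eye-antennal discs of early L3 (last instar) Drosophila melanogaster larvae that carried Eyeless-Gal4, which drives transgenes in this disc, and the temperature-sensitive repressor Gal80ts. The groups were UAS-Yki-Dam with UAS-Dam of Set 2, UAS-Dam-Sd with UAS-Dam of Set 1, UAS-Dam-Jra, titled Set 1 as well, and UAS-Dam of Set 3, with 3 replicates each. Every group had eggs laid at 25 °C overnight, larvae held at 18 °C for 4 days and transgenes released at 29 °C for 24 hours. The labels do not say whether replicates came from separate crosses or pools of animals, so the spread between them may be technical.

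Libraries held 30634921 to 40967981 reads in Yki-Dam, 21416846 to 26989316 in Dam Set 2, 27565694 to 36884351 in Dam-Sd, 26163560 to 35731439 in Dam Set 1, 34016740 to 36843761 in Dam-Jra and 29740748 to 39848344 in Dam Set 3. Each Yki-only interval drew between 240 and 169574 reads over the 18 libraries, with a median of 5969, and all 439 passed the filter on low counts. Replicates of a group differed by more than counting noise in every case. In TMM-scaled reads, the scaling used below, Dam-Sd was the most uneven group. There 157 of the 439 intervals had a highest replicate over 3 times the lowest, and replicate 3 was the lowest in 143 of those 157. The same gap was found at 59 intervals in Yki-Dam, where replicate 1 was the lowest at 44 of them. It was found at 71 in Dam Set 2, 39 in Dam Set 1, 24 in Dam-Jra and 15 in Dam Set 3. The TMM factors of Dam-Sd replicates 1, 2 and 3 themselves differed, at 0.46, 0.65 and 1.07. Unscaled, the intervals took 0.849%, 0.814% and 0.770% of the reads of those replicates. The part of the scaling in the Dam-Sd gap was not tested.

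Yki-only intervals were short. Their median width was 612 bases (quartiles 412 and 972, range 93 to 4417), against 708 bases for intervals of Sd and Yki without Jra, 846 for Yki and Jra without Sd, and 1302 for Yki intervals shared with both. Of the Yki-only intervals, 204 (46.5%) held the minimum of 2 GATC ends, a single fragment, against 29.5%, 37.7% and 15.2% in those classes in the same order. The shared classes numbered 875, 491 and 2073 intervals. Whether width had a part in the class sizes was not tested.

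Their authors' folds were also modest. The log2 fold that the authors' deposited list gave to each peak had a median of 1.58 over the Yki-only intervals (range 0.81 to 7.68), against 1.73 for Sd and Yki, 1.59 for Yki and Jra and 1.99 for all 3. These folds are the authors' own values, and which Dam libraries they were set against is not given in the sources used here. Over the 439 intervals they ranked much as the folds fitted here for Yki-Dam over Dam of Set 2 (Spearman correlation 0.855, from the same reads, so a description).

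**Figure D1:**
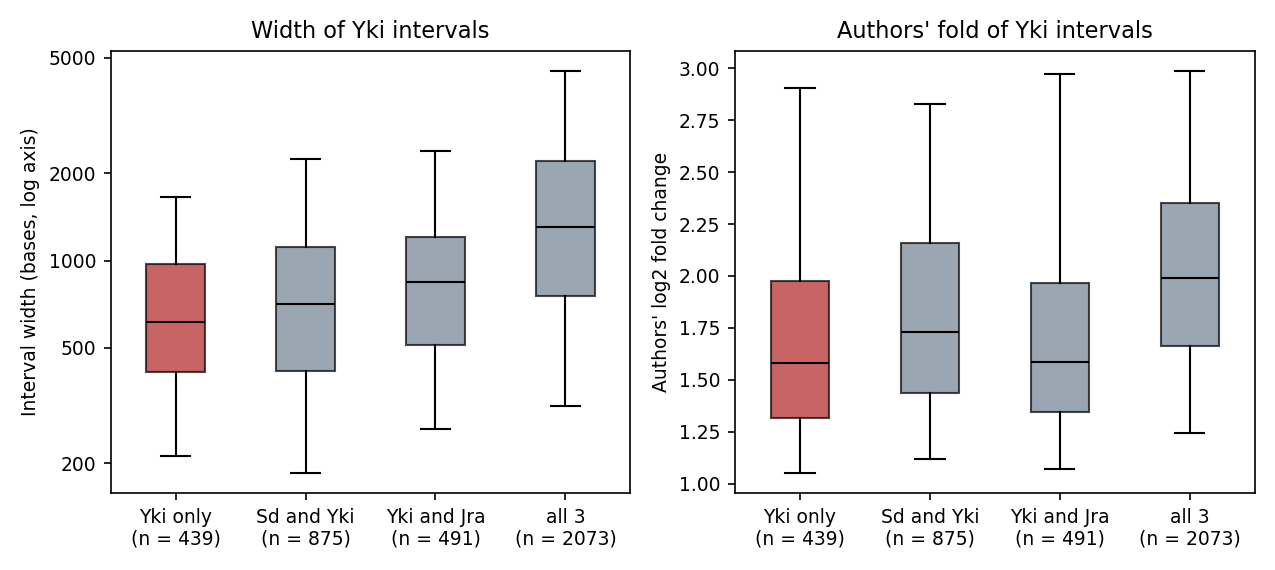
Width in bases on a log axis (left) and the authors' log2 fold (right) of Yki intervals by the lists they overlap. Boxes span the quartiles with the median as a line, and whiskers reach the 5th and 95th percentiles. The Yki-only box has the lowest median in both panels, 612 bases and 1.58, and the all 3 box the highest, 1302 bases and 1.99.

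In position the Yki-only intervals resembled the rest of the Yki list. The authors attached each interval of their lists to gene starts within 5 kb, and the median distance to the nearest start was 524 bases for Yki-only intervals and 510.5 for all Yki intervals. A gene start lay inside 138 Yki-only intervals (31.4%, against 31.6% of all Yki intervals) and over 1 kb away from 175 (39.9%, against 40.3%). The span of a protein-coding gene held 324 of them (73.8%, against 76.1%). By chromosome arm, 69 lay on 2L, 87 on 2R, 77 on 3L, 110 on 3R, 93 on X and 3 on chromosome 4. The X thus held 21.2% of Yki-only intervals and 16.8% of all Yki intervals, while 3L held 17.5% and 21.6%. No test was made of these shares.

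Most Yki-only intervals had neighbours from the other lists. The median gap was 4056 bases to the nearest Sd interval, 4585 to the nearest Jra interval and 2527 to the nearer of the pair. Within 1 kb of an Sd or Jra interval lay 129 of the 439, and 82 lay over 10 kb away from any, the farthest at 294534 bases. These gaps are to listed intervals, which have a gene start within 5 kb, so a peak farther from gene starts would not be counted. Yki-only intervals rarely clustered, and 17 lay within 1 kb of another.

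The rule sits on a fine edge, since peaks begin and end on GATC sites. The intervals just inside it lay 2 to 4 bases from a neighbour. They were at mir-9377 inside Tis11, which codes for an RNA-binding protein (X:12661891-12663898, gap 2 bases), beside the ligand gene Wnt4 (2L:7278429-7278752, gap 3), in the ecdysone-induced transporter gene E23 (2L:3348609-3350700, gap 4) and in l(2)k05911 (2L:13253913-13254368, gap 4). Their authors' log2 folds were 1.78, 3.27, 1.96 and 2.88 in that order. Just outside were intervals that shared a single GATC site of 4 bases with a neighbour, at lncRNA:CR44186 (2L:136097-136559, authors' log2 fold 1.58), Nnf1b (2L:807125-808224, 1.71), the pair-rule gene odd (2L:3602916-3603397, 1.87) and Sfp24Bc (2L:3673659-3674391, 1.48). In all, 55 Yki intervals were left out for sharing no more than that site, and counting them in would give 494 Yki-only intervals.

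The Yki-Dam signal over the intervals was then read from the counts. It chose the intervals and is given as a description. Reads in the 439 intervals took 1.31% ± 0.133 of each Yki-Dam library, against 0.802% ± 0.0882 of Dam Set 2 libraries (mean ± SD, n = 3 each). The median interval had 18.0, 15.6 and 15.8 CPM in Yki-Dam (CPM, TMM-scaled reads per 1000000 reads) and 5.51, 4.55 and 5.24 CPM in Dam Set 2. The fitted log2 fold of Yki-Dam over Dam Set 2 had a median of 1.56 (range 0.61 to 6.22), which was 2.02 above the median of all 67462 regions tested. Of the 439 intervals, 368 had an adjusted p below 0.05 and none was lower, and the share of all regions called higher was 10.7%. Yki-Dam libraries all lay above the Dam Set 2 libraries in 393 intervals, against 15.5% of all regions. With the replicate number as a block, 434 were higher, against 16.3% of all regions.

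The question behind a Yki-only class is whether Dam-Sd and Dam-Jra also left signal there. The signal of both fusions was above the rest of the genome at most of these intervals, though the authors' lists held no Sd or Jra peak in them. Dam-Sd reads took 0.811% ± 0.0397 of a library, against 0.682% ± 0.0717 in Dam Set 1 (mean ± SD, n = 3 each). Dam-Jra reads took 0.896% ± 0.0149, against 0.682% ± 0.0717 in Dam Set 1, 0.802% ± 0.0882 in Dam Set 2 and 0.972% ± 0.0241 in Dam Set 3. The share of reads in Dam-Jra was thus below that of Dam Set 3, while its TMM-scaled median was above. The median interval had 16.5, 10.3 and 6.84 CPM in Dam-Sd and 6.24, 4.69 and 4.67 in Dam Set 1. It had 14.1, 14.8 and 13.6 CPM in Dam-Jra and 8.49, 8.72 and 8.99 in Dam Set 3.

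For Dam-Sd over Dam Set 1, the median log2 fold over the Yki-only intervals was 1.15, which was 1.25 above the median of all regions. It passed the threshold as higher in 243 intervals (55.4%, with 4 lower), and the shares of all regions were 16.7% higher and 16.4% lower. Dam-Sd libraries all lay above Dam Set 1 in 213 intervals, against 17.0% of all regions. Scaled by library size alone, the median was −0.16, and 41 intervals were higher and 61 lower (9.34% and 13.9%, against 5.3% and 42.7% of all regions), while the distance above all regions was 1.04. The count of 243 was 129 without Dam-Sd replicate 1, 143 without Dam Set 1 replicate 2 and 138 without Dam Set 1 replicate 3, and 288 with the replicate number as a block, against 20.3% of all regions.

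For Dam-Jra over the mean of the 3 Dam sets, the median log2 fold was 1.19, which was 1.66 above the median of all regions. It passed as higher in 332 intervals (75.6%, with 2 lower), and the shares of all regions were 26.0% higher and 35.8% lower. Dam-Jra libraries all lay above the 9 Dam libraries in 259 intervals, against 21.1% of all regions. Scaled by library size alone, the median was −0.05, and 70 intervals were higher and 73 lower (15.9% and 16.6%, against 8.91% and 65.2% of all regions), with 1.67 above all regions. Against Dam Set 3 alone, 98 intervals were higher, against 15.3% of all regions.

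At least 1 of these fusions passed as higher at 378 Yki-only intervals (86.1%, against 29.7% of all regions). Yki-Dam passed with neither of the others at 47 (0.44% of all regions). These comparisons differ in their controls and their spread, so a call in 1 and not in another does not show that the fusions differ. The classes with a Yki peak that lacked only 1 other peak gave levels for the missing fusion similar to those at Yki-only regions. The Dam-Sd log2 fold had a median of 1.15 at Yki-only regions and 1.16 at the 426 regions of Yki and Jra, against 2.11 and 2.23 at the regions with an Sd peak and a Yki peak, without and with Jra. The Dam-Jra log2 fold had a median of 1.19 at Yki-only regions and 1.24 at the 804 regions of Sd and Yki, against 2.23 and 2.12 at the regions with Yki and Jra, without and with Sd. Of the classes without a Yki peak, Jra-only regions had a Dam-Sd median of 0.35 and Sd-only regions a Dam-Jra median of 0.71. Both were lower than at Yki-only regions. The Yki-Dam median was 0.86 at the 449 regions of Sd and Jra. That was 1.33 above the median of all regions, against 1.25 for Dam-Sd and 1.66 for Dam-Jra at Yki-only regions. At the 60308 regions with no peak the medians were −0.58 for Yki-Dam, −0.23 for Dam-Sd and −0.72 for Dam-Jra.

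**Figure D2:**
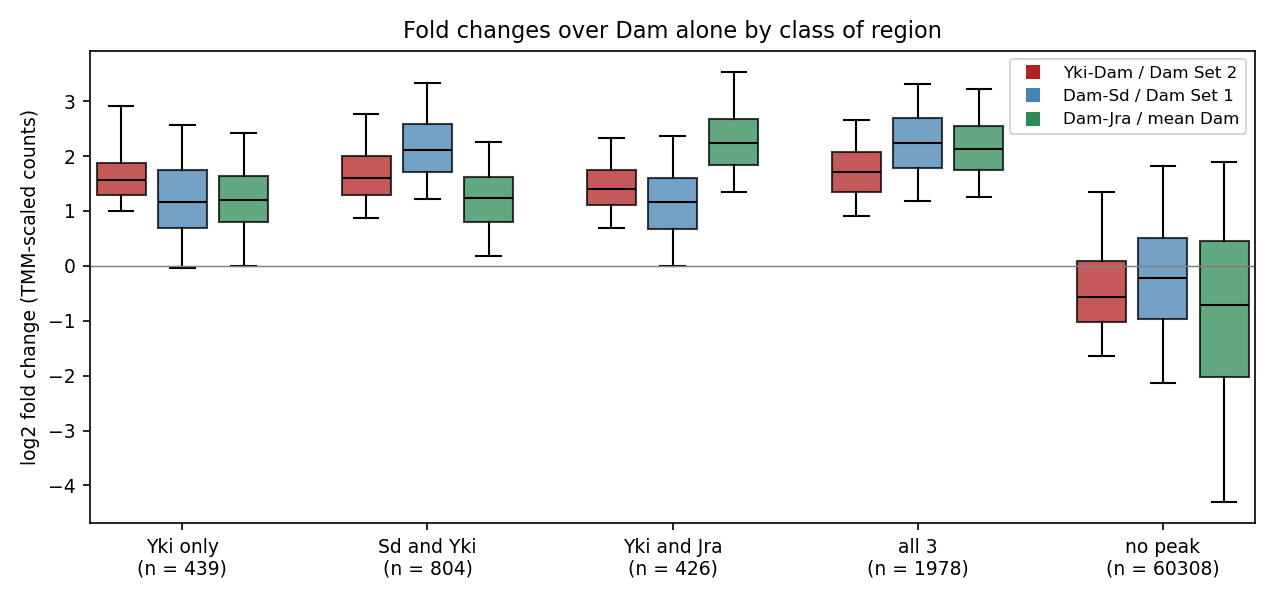
Log2 fold of each fusion over its Dam libraries (TMM scaling) for regions grouped by the peaks they hold. Boxes span the quartiles with the median as a line, and whiskers reach the 5th and 95th percentiles. At Yki-only regions the medians were 1.56 for Yki-Dam, 1.15 for Dam-Sd and 1.19 for Dam-Jra. Scaled by library size alone, those of Dam-Sd and Dam-Jra were −0.16 and −0.05.

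Dam-Sd folds were lower on median at intervals far from an Sd peak, and Dam-Jra folds were highest next to a Jra peak. The Dam-Sd median log2 fold was 1.28 at the 102 Yki-only intervals within 1 kb of an Sd interval, 1.22 at the 146 between 1 and 5 kb, 1.12 at the 66 between 5 and 10 kb and 0.99 at the 125 farther away. The Dam-Jra median was 1.48 at the 85 within 1 kb of a Jra interval, 1.16 at 148, 1.19 at 62 and 1.07 at the 144 over 10 kb away, in the same bins. The Yki-Dam median by distance to Sd moved the other way, with 1.48, 1.56, 1.57 and 1.62. The share called higher for Yki-Dam did not, with 86.3%, 83.6%, 89.4% and 79.2% in these bins, against 10.7% of all regions. A higher Dam-Sd fold past the threshold was found at 44.0% of the intervals over 10 kb from an Sd interval and at 62.7% of those within 1 kb. The share of all regions was 16.7%. The rule used the Sd and Jra lists, so these values are a description.

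Averaged over the intervals, the signal of all 3 fusions peaked at the centre. In the central 500 bases the mean log2 ratio, computed per GATC end with a pseudocount of 0.5 CPM, was 1.21 for Yki-Dam, 0.93 for Dam-Sd and 0.88 for Dam-Jra over their Dam libraries. At 1 kb to the left the ratios were 0.43, 0.46 and 0.55, and at 5 kb 0.26, 0.31 and 0.37. Dam alone peaked there too, with a mean log2 level of 1.41 in the central bin and 0.40 and 0.48 at 5 kb to the left and right. Between 312 and 359 intervals had an end in a given bin. The Dam libraries had a median of 2.08 CPM per end in Yki-only regions, against 3.25 in Sd and Yki, 2.26 in Yki and Jra, 3.87 in all 3 and 0.388 in regions with no peak.

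**Figure D3:**
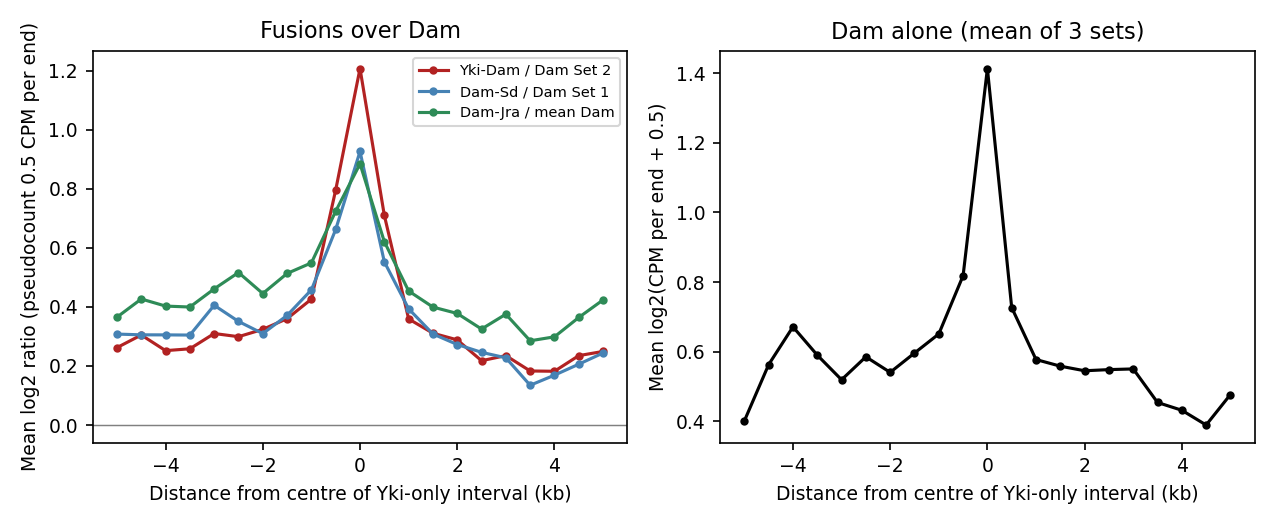
Mean log2 ratio of each fusion over its Dam libraries (left) and mean log2 level of Dam alone per GATC end (right) in bins of 500 bases around the centres of the 439 Yki-only intervals, in kb. All 3 fusions and Dam alone have their highest bin at the centre, with ratios of 1.21, 0.93 and 0.88 and a Dam level of 1.41.

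The fusions were also set against each other as the Yki-Dam fold minus the Dam-Sd or Dam-Jra fold. The intervals were chosen for a Yki peak without the others, which favours positive differences, so these values are a description. The Yki-Dam fold exceeded the Dam-Sd fold at 310 of the 439 intervals and the Dam-Jra fold at 312, and both at 242. It was below them at 129 and 127 intervals, against 40477 and 30655 of all 67462 regions. Yki-Dam libraries all lay above the Dam-Sd libraries at 117 intervals (26.7%, against 10.8% of all regions). They all lay above the Dam-Jra libraries at 122 (27.8%, against 32.4% of all regions). The median difference in log2 fold was 0.37 for Yki minus Sd and 0.34 for Yki minus Jra, against medians over all regions of −0.23 and 0.13. Of the Yki minus Sd differences, 6 passed the threshold as higher and none as lower, against 0.0904% of all regions called higher and 0.0845% lower. With the replicate number as a block, 58 were higher (3.13% of all regions) and 9 lower (4.7%). The count of 6 was 27 without Dam Set 1 replicate 2, 15 without Dam-Sd replicate 3, 10 without Dam-Sd replicate 1, 2 without Dam-Sd replicate 2 and 3 without Yki-Dam replicate 2 or Dam Set 2 replicate 3. Of the Yki minus Jra differences, 43 were higher, against 5.11% of all regions, and 1 was lower, at LRR (7.15% of all regions). The count of 43 was 69 without Dam Set 1 replicate 2 and 28, 24 and 17 without Dam-Jra replicate 1, 2 and 3. With the replicate block, 119 were higher (8.01% of all regions) and 13 lower (13.3%). Over the 439 intervals the Yki-Dam fold varied little with the others, with Spearman correlations of 0.187 with Dam-Sd and 0.223 with Dam-Jra, values that share Dam libraries in the case of Jra.

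**Figure D4:**
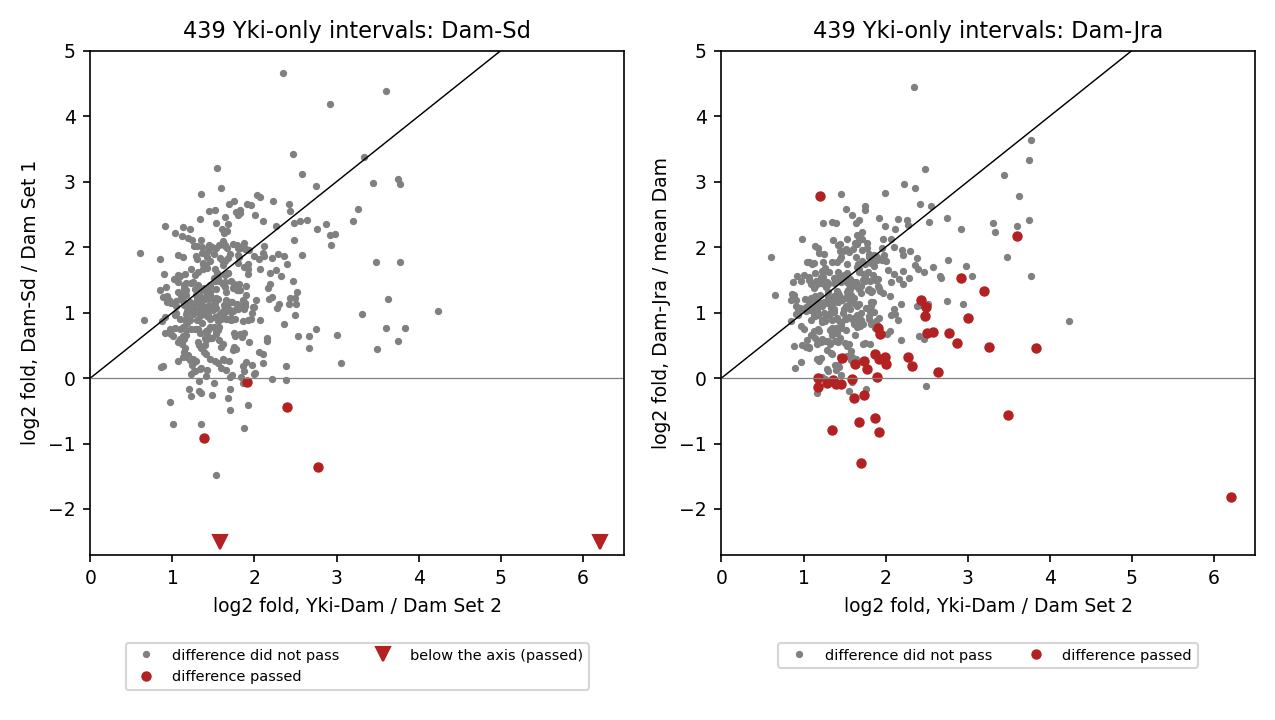
Log2 fold of Dam-Sd (left) and Dam-Jra (right) against that of Yki-Dam at each of the 439 Yki-only intervals, TMM scaling. The diagonal marks equal folds. Red points are the 6 intervals (left) and 44 intervals (right) whose difference in fold passed the threshold, and 2 of the 6 lie below the axis and are drawn as triangles. Below 0 lie 25 points for Dam-Sd and 22 for Dam-Jra, whose medians were 1.15 and 1.19 here and −0.16 and −0.05 when scaled by library size alone.

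The 6 intervals whose Yki minus Sd difference passed are taken in turn. They were picked after their values were seen. The first lay beside lncRNA:CR44786 (2L:21821482-21822176, 695 bases) and had 79.5, 68.2 and 44.4 CPM in Yki-Dam and 14.9, 8.30 and 13.3 in Dam Set 2. Dam-Sd gave 20.7, 13.7 and 10.4 CPM there, against 25.1, 17.5 and 17.9 in Dam Set 1. Yki-Dam libraries stood clear of their Dam libraries and Dam-Sd overlapped with its own. The log2 folds were 2.39 ± 0.33 for Yki-Dam and −0.44 ± 0.32 for Dam-Sd (SE), a difference of 2.83 ± 0.46. Dam-Jra was high as well at this interval, with 38.1, 61.2 and 58.8 CPM against 18.2, 18.0 and 19.8 in Dam Set 3.

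The interval over the start of RYBP (2R:22670684-22670970), which codes for a partner of the Polycomb repressive complexes, had 31.0, 15.7 and 18.9 CPM in Yki-Dam and 10.1, 8.22 and 6.81 in Dam Set 2. In Dam-Sd it had 4.66, 2.07 and 4.00 CPM, and in Dam Set 1 5.72, 7.83 and 6.70. Here every Dam-Sd library lay below every Dam Set 1 library, and the Yki minus Sd difference was 2.30 ± 0.46. Inside siz, which codes for an Arf guanine nucleotide exchange factor (3L:21045464-21045801), Yki-Dam gave 9.80, 5.09 and 4.18 CPM and Dam Set 2 gave 1.07, 0.356 and 1.35. Dam-Sd gave 0.767, 0.507 and 0.643 CPM, below the 1.72, 1.08 and 2.08 of Dam Set 1. The groups did not overlap in either comparison, and the difference was 4.13 ± 0.69.

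The interval over the start of the serpin gene Spn100A (3R:30690138-30690754) had 42.9, 31.2 and 22.9 CPM in Yki-Dam and 8.41, 8.71 and 8.70 in Dam Set 2. Dam-Sd had 15.4, 11.3 and 8.09 CPM, against 14.4, 10.3 and 11.6 in Dam Set 1, which overlap. The difference was 1.97 ± 0.39, and this interval lay 98720 bases from the nearest Sd interval and 30414 from the nearest Jra interval. RYBP, siz and Spn100A were among 51 intervals where Yki-Dam libraries all lay above the 15 other libraries (0.522% of all regions).

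The remaining pair had almost no Dam-Sd reads. Near the seminal fluid protein gene Sfp93F (3R:21735408-21735690), the interval with the highest authors' log2 fold (7.68), Yki-Dam had 106, 608 and 496 reads and Dam Set 2 had 10, 1 and 7. Dam-Sd had 0, 0 and 0 reads and Dam Set 1 had 0, 0 and 51, and Dam-Jra had 1, 2 and 1. Yki-Dam was the only fusion with more than 2 reads there in any library, and its log2 fold was 6.22 ± 1.19. The fitted Yki minus Sd difference of 12.45 depends on the prior count and is no bound. At lncRNA:CR46112 inside sima, the HIF-1 alpha gene (3R:30106358-30106772), Yki-Dam had 5.399, 12.2 and 7.57 CPM and Dam Set 2 had 1.98, 3.34 and 3.07. Dam-Sd had 2, 0 and 0 reads there, against 2.00, 5.72 and 6.40 CPM in Dam Set 1. The other 5 groups all had signal at this interval, and the fitted difference of 8.74 again depends on the prior count.

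**Figure D5:**
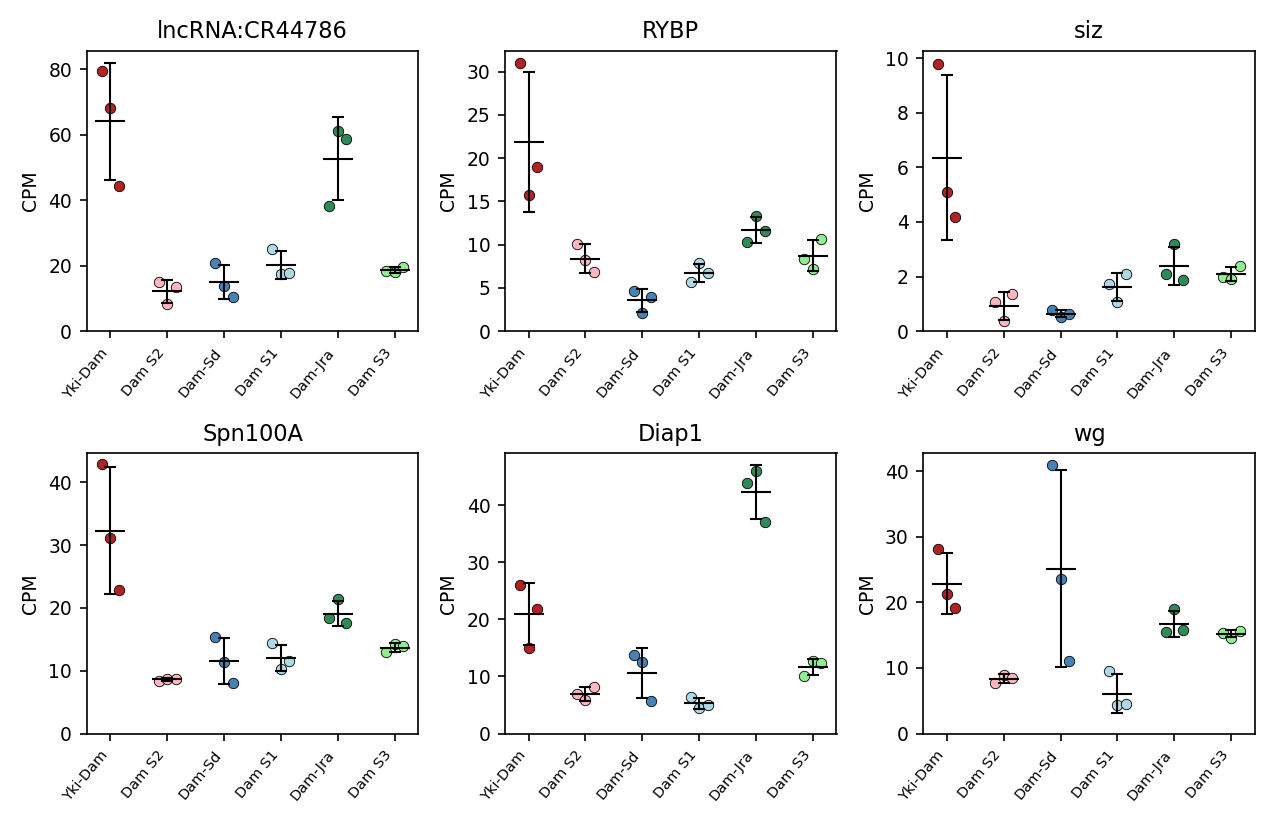
CPM in each library at 6 Yki-only intervals, named by gene. Points are libraries, the long line is the mean and the bar the SD (n = 3), with S1, S2 and S3 for the Dam sets. At lncRNA:CR44786 and Spn100A the Dam-Sd points overlap with those of Dam Set 1 and at RYBP and siz they lie below them, while at wg and Diap1 2 or more Dam-Sd points lie above all of them.

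The other intervals with the highest authors' folds differed in how close their Yki-Dam libraries were. Near the gene CR31292 (3R:15906730-15907287, authors' log2 fold 6.43), Yki-Dam had 12.4, 5.999 and 7.65 CPM and Dam Set 2 had 0.203, 0.630 and 0.986. Dam-Sd (0.767, 1.35 and 0.339 CPM) and Dam-Jra (0.843, 1.37 and 0.366 CPM) lay within or near the range of the 9 Dam libraries. The Yki minus Jra difference was 3.37. In mod, which codes for the nucleolar DNA-binding protein Modulo (3R:32054053-32055066, 5.48), Yki-Dam had 2.66, 1.67 and 1.54 CPM, and no other library passed 0.253 CPM. In tou, which codes for a chromatin-remodelling protein (2R:11594644-11595338, 5.30), Yki-Dam had 11.5, 31.9 and 3.88 CPM and Dam Set 2 had 1.85, 0.712 and 0.873, so that 1 library held most of the signal.

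At the interval attached to CG33725 inside CG10663 (3L:12481269-12481789, authors' log2 fold 5.20), Yki-Dam had 3.47, 26.8 and 21.6 CPM and Dam Set 2 had 1.60, 2.63 and 2.53. Dam-Sd was higher, with 45.1, 25.0 and 12.8 CPM against 7.80, 4.69 and 7.64 in Dam Set 1. In Exn, the gene of the guanine nucleotide exchange factor Ephexin (3L:16988775-16989571, 4.85), Yki-Dam had 40.1, 26.0 and 34.2 CPM and Dam Set 2 had 2.82, 2.63 and 2.79. Dam-Sd had 61.1, 34.3 and 12.1 CPM there, against 2.14, 1.45 and 1.55 in Dam Set 1, so its log2 fold of 4.38 ± 0.44 was above the 3.60 ± 0.42 of Yki-Dam. Neither interval held an Sd peak in the authors' list, and both groups of fusion libraries lay above their Dam libraries. CG31183 (4.61) and CG12075 (4.34) completed the group, with fitted Yki-Dam log2 folds of 2.18 ± 0.73 and 1.91 ± 0.44.

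The weakest peaks by the authors' fold lay in if, which codes for an integrin alpha subunit (X:16776903-16777366, authors' log2 fold 0.81), CG30196 (0.86), the adenylyl cyclase gene Ac13E (0.88) and p130CAS, the gene of an integrin-linked scaffold (0.90). In if, Yki-Dam had 10.4, 10.2 and 9.27 CPM and Dam Set 2 had 5.36, 5.42 and 5.63, so that replicates were close and the groups apart. The fitted log2 folds of these 4 ran between 0.87 and 1.06. Dam-Jra was higher than Dam Set 3 in if as well, with 17.0, 21.5 and 16.8 CPM against 12.5, 11.3 and 11.6.

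Dam-Sd was strongest at the Yki-only intervals of Exn, CG43131 (log2 fold 4.18 ± 0.83) and the small GTPase gene Arf6 (3.42 ± 0.72), leaving out an interval 4642 bases from Hsp70Ba whose fitted fold rests on an empty Dam Set 1. At CG43131 (3R:5104557-5104827), Dam-Sd had 192, 99.9 and 18.6 CPM, Dam Set 1 had 3.68, 9.46 and 3.98, and Yki-Dam had 26.0, 174 and 135 CPM. All Dam-Sd libraries lay above Dam Set 1, but they spanned a wide range. At Arf6 Dam-Sd had 80.5, 41.3 and 27.2 CPM and Dam Set 1 had 8.57, 3.74 and 1.58. Near Hsp70Ba, a heat shock chaperone gene with near-identical copies whose reads the counting could split, Yki-Dam had 59, 89 and 52 reads, Dam Set 2 had 19, 18 and 10, and Dam-Jra had 45, 39 and 40. Dam-Sd had 2, 4 and 0 reads there and Dam Set 1 had 0, 0 and 0, so no fold is given. Besides the near-empty pair above, Dam-Sd was lowest relative to Dam at siz and at the shared start of CG16974 and Edem2 (2L:13190796-13192289), where it had 6, 1 and 11 reads against 55, 12 and 51 in Dam Set 1.

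Leaving out the interval near Hsp70Ba, whose Dam-Jra fold depends on the prior count because Dam Set 1 is empty there, Dam-Jra was strongest at an interval with no gene name on 2R (10123587 to 10123782, log2 fold 3.63 ± 0.99), at chas (3.33 ± 0.42) and at mir-4944, which lies inside hth, the gene of the Yki partner Homothorax (3.20 ± 0.24). At mir-4944 (3R:10512697-10514235), Dam-Jra had 32.1, 32.4 and 29.6 CPM and Dam Set 3 had 3.32, 4.47 and 3.53. Yki-Dam had 27.7, 17.6 and 20.2 CPM there against 4.47, 3.70 and 3.58 in Dam Set 2, and Dam-Sd 20.1, 13.8 and 7.92 against 1.68, 3.15 and 3.20 in Dam Set 1. All 3 fusions lay above their Dam libraries without overlap at this Yki-only interval.

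Dam-Jra was lowest, besides Sfp93F, at e(y)2, which codes for a subunit of the SAGA complex (log2 fold −1.30 ± 0.73), at the adenylyl cyclase gene Ac78C (−0.82 ± 0.37) and at rib, which codes for a BTB-domain transcription factor (−0.80 ± 0.30). In rib (2R:19274315-19275292), Yki-Dam had 20.9, 11.2 and 10.4 CPM and Dam Set 2 had 5.87, 5.12 and 5.77. Dam-Jra had 3.57, 1.81 and 4.21 CPM, against 4.99, 3.78 and 6.71 in Dam Set 3, and Dam-Sd had 5.37, 8.53 and 5.76 against 6.47, 5.35 and 6.13 in Dam Set 1. Only Yki-Dam stood above Dam at this interval among the 3 fusions.

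The gene lists below count genes with an interval attached. They are to be read beside the counts over all protein-coding genes, and their differences were not tested. Over all protein-coding genes, 355 of 13946 (2.55%) had a Yki-only interval attached and 2123 (15.2%) had any Yki interval. Of those 355 genes, 168 (47.3%) also had an Sd or Jra interval attached elsewhere, and 187 had none. The 26 Yki-only intervals attached to genes of the lists below were called higher 23 times for Yki-Dam, 16 times for Dam-Sd and 20 times for Dam-Jra, against 83.8%, 55.4% and 75.6% of all Yki-only intervals and 10.7%, 16.7% and 26.0% of all regions in the same order. None had a Yki minus Sd difference past the threshold, and 2 had a Yki minus Jra difference past it, at vg and salr.

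Of 33 Hippo pathway targets, 23 had a Yki interval and 4 a Yki-only interval, namely Diap1, wg, chinmo and CycA. At Diap1, the caspase inhibitor gene that Yki activates (3L:16049472-16051131, holding a gene start), Yki-Dam had 25.9, 15.04 and 21.8 CPM and Dam Set 2 had 6.86, 5.81 and 8.17. Dam-Sd had 13.7, 12.5 and 5.62 CPM against 6.37, 4.50 and 5.01 in Dam Set 1, and Dam-Jra had 43.9, 45.9 and 36.9 against 10.03, 12.6 and 12.4 in Dam Set 3. Dam-Jra was thus the highest of the 3 fusions at this Yki-only interval, with a log2 fold of 2.48 ± 0.23 against 1.59 ± 0.31 for Yki-Dam and 1.00 ± 0.31 for Dam-Sd. Its Dam-Sd fold was −0.33 when scaled by library size alone.

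Beside wg, the Wnt ligand gene (2L:7302609-7303888, 3271 bases from a start), Yki-Dam had 28.2, 21.4 and 19.1 CPM and Dam Set 2 had 7.72, 8.99 and 8.45. Dam-Sd had 40.9, 23.6 and 11.004 CPM, against 9.50, 4.32 and 4.50 in Dam Set 1. Neither pair of groups overlapped, and the log2 folds were 1.45 ± 0.38 and 2.04 ± 0.38. Dam-Jra had 15.5, 19.0 and 15.7 CPM, within reach of the 15.3, 14.6 and 15.7 of Dam Set 3. At CycA, a mitotic cyclin gene (3L:11832439-11833054), Yki-Dam had 233, 120 and 147 CPM and Dam Set 2 had 66.9, 40.5 and 62.9. Dam-Jra had 253, 250 and 215 CPM, against 71.8, 95.5 and 106 in Dam Set 3. At chinmo, which codes for a BTB zinc finger protein of disc growth and timing, the log2 folds were 1.37 ± 0.48 for Yki-Dam, 1.75 ± 0.48 for Dam-Sd and 1.46 ± 0.36 for Dam-Jra.

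Of 37 Hippo pathway components, 17 had a Yki interval and 2 a Yki-only interval, Pez and vg. The interval at the shared start of Cpr and Pez, which codes for a tyrosine phosphatase that binds Kibra (2L:6338449-6339075), had 43.7, 23.0 and 21.9 CPM in Yki-Dam and 10.2, 8.88 and 9.04 in Dam Set 2. No other library at this interval passed 16.3 CPM. At vg, the gene of the Sd cofactor Vestigial (2R:12883886-12884792, holding a gene start), Yki-Dam had 5.21, 2.26 and 4.15 CPM and Dam Set 2 had 1.02, 1.10 and 1.35. Dam-Sd had 4.13, 3.00 and 1.93 CPM, against 1.78, 1.10 and 1.55 in Dam Set 1, and Dam-Jra had 1.19, 1.61 and 1.05 against 2.51, 2.40 and 1.57 in Dam Set 3. Yki-Dam and Dam-Sd lay above their Dam libraries and Dam-Jra did not, and the Yki minus Jra difference was 2.01 ± 0.49.

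Of 32 JNK and AP-1 targets, 23 had a Yki interval and 2 a Yki-only interval, chinmo and Keap1, the gene of the oxidative stress sensor. Among 34 chromatin regulators and Yki cofactors the counts were 9 and 3. These were nej, the gene of the acetyltransferase CBP (Yki-Dam 34.1, 56.8 and 43.4 CPM, Dam Set 2 18.7, 15.6 and 15.9), and the Polycomb group genes Psc and ph-d. Near Psc the Yki-Dam libraries had 2, 766 and 114 reads, so that the interval rested on replicate 2. Among 28 cell cycle genes they were 10 and 2, CycA and the mitotic cyclin gene CycB3 (2.98 ± 0.85).

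Of 32 eye-antennal specification genes, 20 had a Yki interval and 3 a Yki-only interval, all of them transcription factor genes. At dac, the retinal determination gene dachshund (2L:16485360-16486245, holding a gene start), Yki-Dam had 40.7, 19.0 and 26.3 CPM and Dam Set 2 had 10.4, 5.75 and 10.98. Near ro, the photoreceptor gene rough (3R:26878665-26879585), Yki-Dam had 30.9, 12.97 and 22.6 CPM and Dam Set 2 had 7.45, 6.66 and 9.18. Dam-Jra also lay above Dam Set 3 near ro, with 39.2, 34.0 and 33.3 CPM against 19.4, 25.3 and 21.8. In salr, the spalt-related gene (2L:11368862-11369556), Yki-Dam had 11.1, 7.76 and 6.95 CPM and Dam Set 2 had 2.77, 1.84 and 3.72. Dam-Jra in salr, with 3.52, 5.03 and 2.93 CPM, overlapped with the 4.86, 2.48 and 3.62 of Dam Set 3, and the Yki minus Jra difference was 1.42.

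Of 37 signalling genes, 30 had a Yki interval and 3 a Yki-only interval, wg, the receptor gene Egfr and pnt, the ETS factor gene downstream of it. In Egfr (2R:21526655-21527748), Yki-Dam had 128, 112 and 137 CPM and Dam Set 2 had 37.9, 20.2 and 36.7. Dam-Jra had 191, 186 and 178 CPM and Dam-Sd 101, 99.2 and 45.0, in an interval listed for Yki alone. These are levels, and the folds of Dam-Jra and Dam-Sd over their Dam libraries are not given here. Of 26 actomyosin genes, 17 had a Yki interval and 3 a Yki-only interval, the small GTPase gene Cdc42, the formin gene capu and the spectraplakin gene shot, which held 2. The shot intervals had Yki-Dam log2 folds of 1.69 ± 0.43 and 1.63 ± 0.33, and Dam-Sd log2 folds of 2.66 ± 0.44 and 1.79 ± 0.33.

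Polarity and junction genes had a Yki interval at 17 of 29 and a Yki-only interval at none. Mitochondrial respiratory chain genes had them at 3 and 0 of 24, and ribosomal protein genes at 1 and 1 of 28, the start of RpL23 (Yki-Dam 11.1, 4.24 and 5.42 CPM, Dam Set 2 2.62, 4.03 and 1.77). Further lists stand for cells other than disc epithelium, though pnt is in the signalling list as well. They had Yki-only intervals at CadN and futsch (2 of 20 neuronal genes) and at loco and pnt (2 of 14 glial genes). Of 15 muscle genes, 1 had a Yki-only interval, Tm1. Any Yki interval was found at 2 neuronal, 6 glial and 3 muscle genes. Among 15 haemocyte, 15 fat body and 14 germline genes, 2, 3 and 1 had a Yki interval and none a Yki-only interval. The developing disc holds neurons and glia, and the part of such cells in the signal was not tested.

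Dam alone was most abundant per GATC end at the Yki-only intervals of larp, LanB1 and CG4928 and at an interval in the overlapping spans of msi and ymp. At larp, an RNA-binding protein gene (3R:28326700-28326931), Yki-Dam had 551, 266 and 317 CPM and Dam Set 2 had 245, 135 and 163. The groups did not overlap, but the log2 fold of 1.06 ± 0.40 did not pass the threshold. At LanB1, a laminin gene (2L:7811824-7812107), Yki-Dam had 361, 254 and 269 CPM and Dam Set 2 had 113, 58.8 and 104. Dam Set 1, the control of Dam-Sd, was lower there than Dam Set 2, with 34.7, 33.1 and 17.9 CPM. Between the Dam sets, 9 of the 439 intervals were higher in Set 2 than in Set 1 and 4 lower, with 1.42% and 1.14% of all regions called. The count of 9 was between 1 and 4 when any of the 6 libraries was left out. The count of 4 was 27 without Dam Set 1 replicate 2, and otherwise between 2 and 5. With the replicate block 35 were higher in Set 2 (12.3% of all regions) and 73 lower (13.3%), so that lower calls outnumbered higher ones.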

How the data were processed

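The authors' deposited table held whole-number read counts per end of each GATC site in 18 libraries, each end on its own strand. The submitters' processing notes name Subread, featureCounts, edgeR, bedtools and the dm6 build, whose versions are not given in the sources used here. Each peak in the authors' deposited lists came with a log2 fold change, a p-value and gene starts within 5 kb. The control of the peaks, and whether libraries were pooled before calling them, is not given in the sources used here.

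Read counts were added up over 74909 regions, namely merged intervals of the 3 lists and pieces of at most 2000 bases between them. After filterByExpr (minimum count 10), 67462 regions were fitted for all 18 libraries as 6 groups in edgeR 4.0.16 (R 4.3.3, TMM, quasi-likelihood test, 12 residual degrees of freedom, Benjamini-Hochberg adjustment over all regions, threshold 0.05). SE is the size of the log2 fold over the square root of F. Dam-Jra, titled Set 1 although Dam Set 3 has no fusion, was set against the mean of all Dam sets. On simulated data with 4-fold changes in 200 regions, the Yki-Dam comparison recovered 28.5% of them with 3.39% false calls. No column of per-sample values was left unmapped.

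Replicate numbers were checked for pairing by the correlation of deviations from group means over regions. Equal numbers gave 0.581, 0.351 and 0.336 for Yki-Dam with Dam Set 2 and 0.561, 0.337 and 0.217 for Dam-Sd with Dam Set 1. Replicates 2 and 3 also correlated across numbers (Yki-Dam 3 with Dam 2 at 0.359, Yki-Dam 2 with Dam 3 at 0.236, Dam-Sd 3 with Dam 2 at 0.403), so that mainly replicate 1 stood apart. Dam-Jra paired with neither Set 1 nor Set 3.

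Gene IDs of the lists were named by matching the authors' gene starts to gene boundaries in the RefSeq table (5004 of 5185 IDs, 96.5%). Named intervals were those with the 8 highest and 4 lowest authors' folds, the 4 on each side of the overlap rule, the 4 lowest and highest Dam-Sd and Dam-Jra folds, the 4 with most Dam reads per end, and up to 4 for each of 18 gene lists. The intervals and lists were chosen with earlier results of these data known. Alternatives covered scaling, filter, test, block, control, overlap and each library left out. Motifs and base composition were not analysed here, and the result of 1 gene list is not reported here. Figures were drawn with matplotlib 3.10.9, and DESeq2 1.42.0 served as another test.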

Additional observations from a re-analysis of the deposited data

Results flagged for a closer look

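For these Yki-only intervals the difference between 2 fusions, each taken over its own Dam libraries, passed the threshold in the fit across all regions (edgeR quasi-likelihood test). The choice of intervals favours such differences, so the values are a description. The Yki minus Sd difference in log2 fold was 2.83 at lncRNA:CR44786, 2.30 at RYBP, 4.13 at siz, 12.45 at Sfp93F, 8.74 at lncRNA:CR46112 and 1.97 at Spn100A. The values at Sfp93F and lncRNA:CR46112 rest on 0, 0, 0 and 2, 0, 0 Dam-Sd reads and depend on the prior count.

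Among the intervals named by the rule and these 6, the Yki minus Jra difference in log2 fold was 1.41 at Wnt4, 1.42 at salr, 2.01 at vg, 2.14 at rib, 1.44 at Exn, 2.08 at siz, 2.74 at Ac78C, 3.37 at CR31292, 8.04 at Sfp93F and 3.00 at e(y)2. At Ac78C (3L:21144659-21145822), Yki-Dam had 6.21, 4.96 and 3.96 CPM, Dam-Jra had 0.496, 0.977 and 0.686, Dam Set 2 had 1.12, 1.56 and 1.32 and Dam Set 3 had 1.78, 1.07 and 1.20. At e(y)2 (X:11576299-11576422), Yki-Dam had 101, 87 and 114 reads and Dam-Jra had 15, 4 and 3.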

How the results depend on the processing

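Scaled by library size alone, Yki-only intervals called higher were 142 of 439 for Yki-Dam, 41 for Dam-Sd, 70 for Dam-Jra, 19 for Yki minus Sd and 104 for Yki minus Jra. Regions higher were 3743, 3578, 6012, 170 and 4767 of 67462 in the same order. In either direction 28179 regions were called for Yki-Dam, 228 for Yki minus Sd and 1058 between Dam Sets 2 and 1. The median of all regions was then −1.29 for Yki-Dam, −1.20 for Dam-Sd and −1.72 for Dam-Jra, against −0.47, −0.09 and −0.47 with TMM. Under that scaling the Dam-Sd log2 fold turned negative at p130CAS (−0.45), Wnt4 (−0.41), Diap1 (−0.33), nej (−0.067), ph-d (−0.015), dac (−0.30), ro (−0.015) and loco (−0.37). The Dam-Jra log2 fold turned negative at CG33725 (−0.12), Ac13E (−0.22), mir-9377 (−0.27), Wnt4 (−0.17), wg (−0.38), Pez (−0.28), dac (−0.45) and loco (−0.048). No other alternative turned the direction of a named interval.

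With the replicate block, regions called were 22362 for Yki-Dam, 5283 for Yki minus Sd, 14352 for Yki minus Jra and 17254 between the Dam sets. Intervals higher were 58, 119 and 35 for the last 3 of these, and the median above all regions was 1.37 for Dam-Jra and 0.41 for Yki minus Jra. Intervals lower were 9, 13 and 73 for those 3 and 5 for Dam-Jra, against 0, 1, 4 and 2 without it. The block moved no other count of intervals by over 1.5 times. Against the mean of the Dam sets, 19905 regions were called for Yki-Dam, with a median of 1.38 above all regions. Against Dam Set 3, 22731 regions were called for Dam-Jra, 10348 of them higher. There 98 intervals were higher, with a median of 0.99 above all. The fusions compared directly gave 4514 regions called for Yki minus Sd, 1510 of them higher. Of the intervals 56 were higher and 4 lower, with a median of 0.39 above all. With no filter the Dam-Jra median was 1.72 above all.

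The next counts are, in order, regions called in either direction, regions higher and intervals higher. With only the groups of the comparison in the fit, they were 14574, 7757 and 135 for Dam-Sd (64038 regions tested). They were 5, 4 and 1 for Yki minus Sd (67137 tested) and 14209, 6874 and 69 for Yki minus Jra (67204 tested). Between Dam sets they were 482, 228 and 2 (65675 tested). DESeq2, with 67462 regions tested, gave 1778, 786 and 31 for Yki minus Sd and 12552, 6679 and 73 for Yki minus Jra. Between Dam sets it gave 5676, 3507 and 21. Intervals lower with DESeq2 were 1, 5 and 15 in the same order. At an adjusted p below 0.01 in the main fit, the counts were 6130, 4246 and 197 for Yki-Dam and 14819, 8050 and 140 for Dam-Sd. They were 22, 14 and 1 for Yki minus Sd, 2687, 715 and 14 for Yki minus Jra and 361, 215 and 2 between Dam sets. At single GATC ends 39715 were called for Yki-Dam, and 622 of 1614 ends in Yki-only intervals were higher (7.0% of all ends).

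With each library left out in turn, intervals higher ran between 129 and 297 for Dam-Sd, 2 and 27 for Yki minus Sd, 17 and 69 for Yki minus Jra and 1 and 4 between Dam sets. Regions higher ran between 7964 and 13268, 21 and 1181, 1336 and 5330, and 163 and 1180 in the same order. Regions called ran between 8413 and 12119 for Yki-Dam, 38 and 2367 for Yki minus Sd, 4204 and 8730 for Yki minus Jra and 539 and 4615 between Dam sets. The median above all regions ran between 1.84 and 2.08 for Yki-Dam, 1.63 and 1.74 for Dam-Jra and 0.18 and 0.98 for Yki minus Sd.

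The number of Yki-only intervals was 730 where only overlap of 50% or more of the interval counted as shared. It was 310 where a neighbour within 1 kb counted and 134 with authors' folds above the list's median. It was 392 with authors' p below 1e-04. That 392 is not a count within the Yki-only intervals described here, since fewer of these had such a p. Without single shared GATC sites, an alternative chosen after seeing the data, it was 494. The causes of these shifts were not tested.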

Other observations

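The intervals named here were picked after their values were seen. Some of the 51 Yki-only intervals where every Yki-Dam library lay above the 15 other libraries sat in genes outside the lists. In Sb, which codes for the membrane protease Stubble that shapes disc appendages (3R:16119134-16119485), Yki-Dam had 215, 111 and 125 CPM and Dam Set 2 had 49.0, 24.2 and 23.8. Dam-Sd had 95.9, 105 and 48.1 CPM there, against 24.7, 24.5 and 20.6 in Dam Set 1. Near Osi14, of the clustered Osiris family (3R:6297024-6298443), Yki-Dam had 10.3, 9.83 and 9.32 CPM and Dam Set 2 had 0.711, 1.81 and 1.86, and the nearest Sd interval lay 45160 bases away. At Osi17, in the same cluster (3R:6314634-6315267), Yki-Dam had 6.36, 4.02 and 4.63 CPM and Dam Set 2 had 1.73, 2.25 and 1.75. In grh, which codes for the epithelial transcription factor Grainy head (2R:17806210-17806315), Yki-Dam had 15.9, 23.8 and 14.3 CPM, while Dam Set 2 had 11.9, 3.86 and 3.89, so that 1 Dam library came near the lowest Yki-Dam library.

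A few genes had several Yki-only intervals. Beside Atf-2, the gene of a bZIP factor, adjacent intervals (2R:24867158-24868371 and 2R:24868471-24868970) had Yki-Dam log2 folds of 1.81 ± 0.33 and 1.88 ± 0.38 (SE). The 3 intervals near lncRNA:CR45590 on 3R differed among themselves, with Yki-Dam log2 folds of 1.57 ± 0.39, 0.65 ± 0.40 and 3.49 ± 0.68, the last resting on 35.6 and 21.1 CPM in replicates 2 and 3 against 2.04 in replicate 1.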
